A study of Homo sapiens with 32 samples.

Results

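The regions described here are m6A peaks of A375 cells that lay in short protein-coding genes other than the replication-dependent histones. A peak was taken as a member when its summit fell in the RefSeq span of a protein-coding gene of at most 3000 bp from start to end, and genes with symbols of the clustered histones (H1-, H2AC, H2BC, H3C, H4C) were left out. This gave 2112 of the 180114 peaks in 4 lists. They lay in 412 of the 1887 short genes that the rule covers (21.8%), out of 20052 protein-coding genes in the table, while 67 short histone genes were excluded. The rule used gene length and symbol only and no measured value.

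The study enriched RNA fragments with an antibody against N6-methyladenosine (m6A) and sequenced them (MeRIP-seq), and its title asks about CENPA, a histone variant of centromeres, as a reader of m6A on centromeric RNA. The RNA was the chromatin-associated, ribosome-depleted fraction of A375, an established human melanoma line. The compared groups were shControl (genotype label WT, 2 lists) and shMETTL3 (genotype label METTL3 knockdown, 2 lists), where METTL3 is the enzyme that writes most m6A in messages, and both carried a hairpin construct. Of 32 samples in 16 groups, those other than these 4 enriched libraries were not analysed here. The labels do not say whether replicates were separate cultures, so any spread between lists may be technical, and read depth is unknown. The sources used here give neither the hairpin sequence nor the remaining METTL3 protein.

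In most messages m6A is deposited while the RNA is made, at adenosines in a short consensus with a GGAC core, and it is known for its density in long internal exons and near the stop codon. Exon junction complexes keep the methyltransferase away from nearby sequence, so messages with few or no introns, as many short genes have, offer long stretches without that protection. Short genes include many that cells switch on quickly, such as immediate-early and heat shock genes, single-exon receptors, and small subunits of ribosomes and mitochondria.

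The lists covered 45345 and 47692 peaks in the control and 44108 and 42969 in the knockdown. METTL3 itself held 5 peaks in every list, and 3 of its 6 loci were present in all 4 lists. A peak list does not measure the RNA level of METTL3, so it holds no check of how deep the knockdown was. Of 7 melanocyte markers MITF had peaks in all 4 lists and the other 6 had none. Markers of keratinocytes (KRT10) and of fibroblasts (LUM) had peaks for 1 of 4 genes each, and those of leukocytes and kidney for 0 of 4 and 0 of 3. An absent peak is not an absent message, and fewer cells of a type and less RNA per cell cannot be told apart in bulk RNA.

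Sequence was available for a window around the annotated start of genes, from 250 bp before to 50 bp after it. The windows below are from RefSeq (GRCh38.p14), read 5′ to 3′ on the strand of the gene, with the bases under the merged m6A locus in capitals. They show what a peak at the start of a short gene covered in each class: in all 4 lists (SFN and MC1R), in the control lists only (TMT1B) and in the knockdown lists only (OR2W3 and CDK2AP2).

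SFN, chr1:26862899-26863198, plus strand: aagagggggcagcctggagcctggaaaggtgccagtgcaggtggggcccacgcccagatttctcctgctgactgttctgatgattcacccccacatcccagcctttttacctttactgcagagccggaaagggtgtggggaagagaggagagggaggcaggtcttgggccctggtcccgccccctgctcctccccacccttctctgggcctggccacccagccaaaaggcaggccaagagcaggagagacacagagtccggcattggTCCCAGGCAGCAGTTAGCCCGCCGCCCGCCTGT
MC1R, chr16:89918612-89918911, plus strand: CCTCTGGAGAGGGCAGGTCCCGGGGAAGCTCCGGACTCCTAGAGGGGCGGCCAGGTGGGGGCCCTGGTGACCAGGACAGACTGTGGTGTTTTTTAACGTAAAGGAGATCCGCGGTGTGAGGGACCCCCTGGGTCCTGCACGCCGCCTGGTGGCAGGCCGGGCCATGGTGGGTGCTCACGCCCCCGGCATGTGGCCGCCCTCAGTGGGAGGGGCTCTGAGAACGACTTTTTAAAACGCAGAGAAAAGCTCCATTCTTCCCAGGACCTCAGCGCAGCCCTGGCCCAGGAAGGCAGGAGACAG
TMT1B, chr12:55681486-55681785, plus strand: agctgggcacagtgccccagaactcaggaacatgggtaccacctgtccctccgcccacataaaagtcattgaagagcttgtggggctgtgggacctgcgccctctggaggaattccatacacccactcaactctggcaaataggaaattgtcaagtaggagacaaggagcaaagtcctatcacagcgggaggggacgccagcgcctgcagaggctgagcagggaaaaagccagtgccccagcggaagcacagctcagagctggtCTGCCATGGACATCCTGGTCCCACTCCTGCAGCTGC
OR2W3, chr1:247895337-247895636, plus strand: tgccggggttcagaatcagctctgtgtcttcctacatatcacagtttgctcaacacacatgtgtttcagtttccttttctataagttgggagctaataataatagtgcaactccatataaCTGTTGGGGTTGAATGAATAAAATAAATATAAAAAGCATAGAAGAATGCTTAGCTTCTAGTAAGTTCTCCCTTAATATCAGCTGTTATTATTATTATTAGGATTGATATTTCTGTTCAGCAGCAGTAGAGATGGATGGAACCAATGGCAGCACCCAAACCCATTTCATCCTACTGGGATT
CDK2AP2, chr11:67508113-67508412, minus strand: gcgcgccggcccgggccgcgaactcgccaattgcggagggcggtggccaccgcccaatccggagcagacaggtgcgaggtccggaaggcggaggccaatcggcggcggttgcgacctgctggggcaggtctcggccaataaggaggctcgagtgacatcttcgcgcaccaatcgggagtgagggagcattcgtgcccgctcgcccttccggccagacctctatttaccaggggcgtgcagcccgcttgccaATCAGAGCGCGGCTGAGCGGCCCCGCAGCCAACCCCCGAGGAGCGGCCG

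SFN encodes 14-3-3 sigma, a phosphoserine-binding protein of epithelial cells, and its locus covered the last 33 bases of the window. MC1R encodes the melanocortin receptor of melanocytes, and its locus covered all 300 bases, with GGAC 4 times. TMT1B was covered over 36 bases with 1 GGAC, and CDK2AP2, a small protein of the CDK2-associated family, over 49 bases with none. OR2W3, an olfactory receptor gene, was covered over 180 bases, 130 of them before the annotated start, and none of the window held GGAC. GGAC was searched on the strand of the gene only; it was present in 66.3% of 1363 short-gene windows, in 70.2% of the 319 windows of short genes with a peak and in 69.6% of 15859 windows of all protein-coding genes. Of the 475 member loci on the strand of their gene, 82 (17.3%) touched the window, 48 reached upstream of the annotated start and 3 covered the window whole. A match of these letters is a description and not a methylated site.

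The knockdown lists held more peaks in short genes than the control lists, although they held fewer peaks in all. The control lists held 482 and 485 of them, and the knockdown lists 572 and 573. The groups did not overlap: the means were 483.5 ± 2.12 and 572.5 ± 0.707 (SD, n = 2 each), a ratio of 1.18. The exact permutation test of 2 lists against 2 gave p = 0.33, the smallest it can give, and an adjusted p of 0.370 over 10 measures, so no comparison between groups could pass a threshold here. As a share of the list, short genes took 1.06% and 1.02% of control peaks and 1.30% and 1.33% of knockdown peaks, again without overlap. The genes with a peak numbered 309 and 306 in the control and 347 and 356 in the knockdown.

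**Figure D1:**
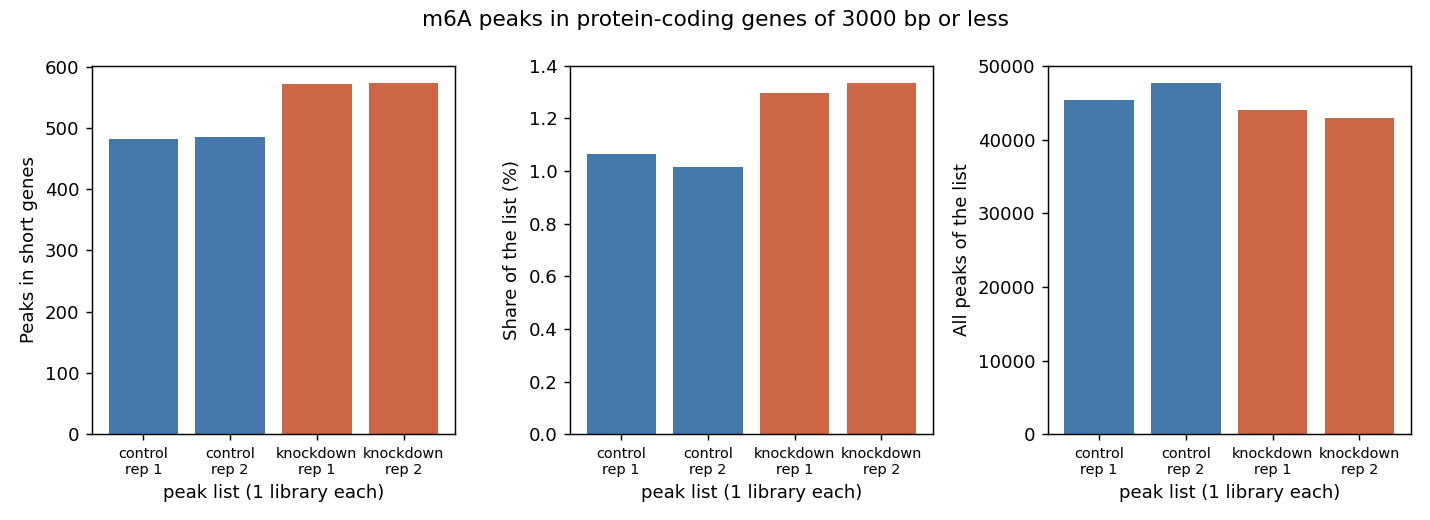
Bars give, for each of the 4 peak lists (1 library each), the number of peaks in short genes, their share of the list in percent, and the number of all peaks. Both knockdown lists stand above both control lists in the first and second panel (572 and 573 against 482 and 485 peaks) and below them in the panel of all peaks.

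Genes of the next length class went the other way. Genes over 3000 and up to 10000 bp held 2976 and 3083 peaks in the control and 2724 and 2652 in the knockdown. For 100 peaks in these genes, short genes held 16.2 and 15.7 peaks in the control and 21.0 and 21.6 in the knockdown (exact permutation p = 0.33, n = 2 each). Restricting members to peaks on the strand of the gene and in no other gene left 261 and 268 against 327 and 328 peaks, so the gap was present among peaks with the simplest assignment too.

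Enrichment of member peaks was middling within each list. The fold enrichment of a peak is the caller's own value, and its percentile is the rank among all peaks of the same list. The median percentile of member peaks was 53.6 and 55.6 in the control and 52.0 and 49.5 in the knockdown, with the other peaks of each list close to the middle rank by construction. Members stood above the others in 3 of 4 lists, by 2.72 points on average (exact sign-flip p = 0.25 over 4 lists, two-sided). The knockdown lists were 3.85 points lower than the control lists without overlap (exact permutation p = 0.33, n = 2 each). Median folds were 3.97, 3.83, 4.02 and 3.90 in control replicates 1 and 2 and knockdown replicates 1 and 2. Member peaks were wider than other peaks in 4 of 4 lists, with medians of 316.5, 314, 310 and 304 bp against 255, 259, 267 and 268 bp (exact sign-flip p = 0.13, the smallest that 4 lists can give).

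Merging overlapping peaks of the 4 lists on the same strand gave 689 loci in short genes out of 66409. A locus was called control-only when the control lists both held it and the knockdown lists both lacked it, and knockdown-only in the reverse case. Of 387 member loci present in both control lists 46 were control-only, 11.9% (95% Wilson interval 9.03 to 15.5%), against 22.6% of all loci. Of 476 present in both knockdown lists 108 were knockdown-only, 22.7% (19.2 to 26.7%), against 18.9% of all loci. Among loci found in 1 group only, 29.9% of those in short genes were control-only, while the figure was 56.9% over all loci. All 4 lists shared 316 member loci (45.9%, against 35.7% of all loci), and 130 were in 1 list only. The intervals cover counting error only, since loci of 1 gene and 1 library are not independent.

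The shared loci ranked a little lower in the knockdown. For each of the 316 the mean percentile of the control lists was taken from that of the knockdown lists, and the median difference was -2.20 points, against -0.615 over all shared loci. Both knockdown percentiles lay above both control percentiles at 83 loci (26.3%, against 25.3% of all shared loci) and below both at 109 (34.5%, against 28% of all). The share above was near the background.

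The shares differed with gene length. Genes of at most 1000 bp had 2 control-only of 23 loci (8.70%) and 8 knockdown-only of 31 (25.8%). Genes over 1000 and up to 2000 bp had 10.7% and 22.4%, and genes over 2000 and up to 3000 bp had 12.8% and 22.5%. Beyond the limit of the rule, genes over 3000 and up to 5000 bp had 19.1% control-only and 15.6% knockdown-only, and genes over 5000 and up to 10000 bp 23.6% and 15.4%. The order did not continue: genes over 10000 and up to 100000 bp had 21.9% and 16.2%, and genes over 100000 bp had 22.1% control-only and 22.3% knockdown-only, the latter as high as in short genes. Mean peak counts in the knockdown relative to the control were 1.29, 1.25 and 1.14 in the 3 short classes, and 0.955 and 0.862 in the classes just above them, and 1.01 in genes over 100000 bp. The fraction of genes with any peak went the opposite way with length: 41 of 475 genes of at most 1000 bp (8.63%), 157 of 732 (21.4%), 214 of 680 (31.5%), and 40.4% of genes over 3000 and up to 10000 bp. Of genes with a locus in all lists and no other gene at its summit, MRPL17 (2955 bp; 5.41 and 6.05, then 4.38 and 4.50, at the higher of 2 loci) and HMGB2 (2982 bp) lay nearest inside the limit. THAP7 (3014 bp) lay just outside it, and its locus had folds of 5.71 and 5.62 in the control and 8.08 and 6.27 in the knockdown.

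**Figure D2:**
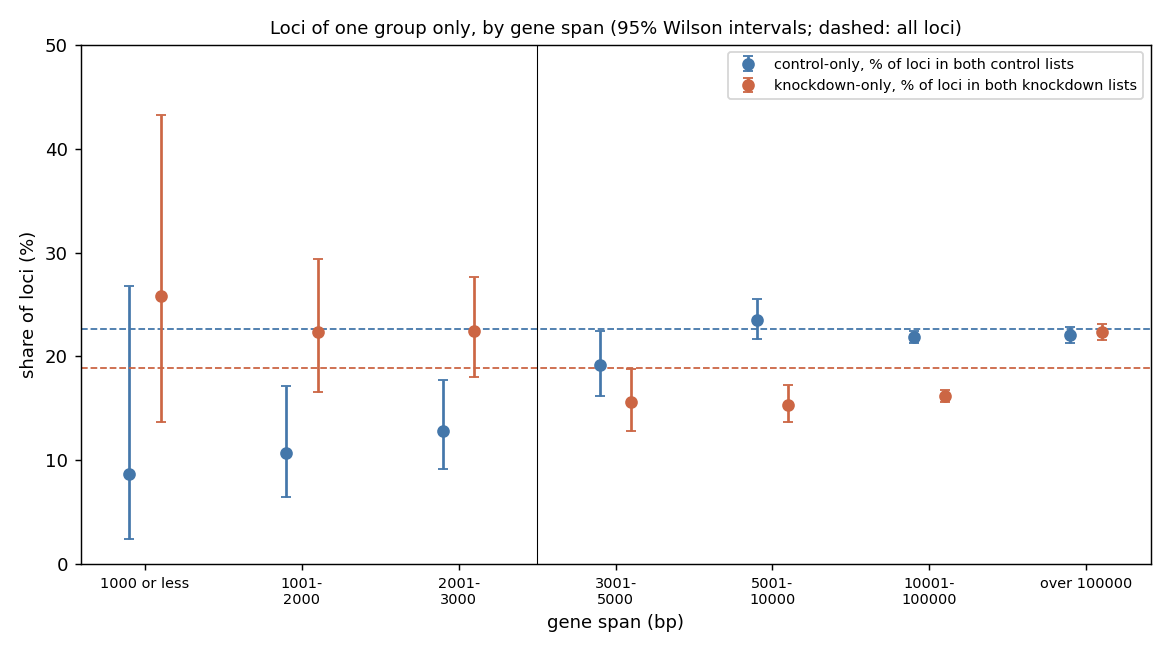
For classes of gene span in bp on the horizontal axis, points give the percentage of loci that were control-only (of loci in both control lists) or knockdown-only (of loci in both knockdown lists), with 95% Wilson intervals; dashed lines mark all loci at 22.6% and 18.9%, and the vertical line marks the 3000 bp limit. The control-only share lies at 8.70 to 12.8% in the 3 short classes and at 19.1% or more in every class over 3000 bp.

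Every position in a short gene is close to an annotated start or end, so loci of longer genes were also split by distance from those edges, after the member values had been seen. In genes over 3000 bp, loci within 1500 bp of an edge were control-only in 822 of 4709 cases (17.5%, 16.4 to 18.6%) and knockdown-only in 901 of 4715 (19.1%, 18.0 to 20.3%). This split left out loci whose summit lay in another gene too. Member loci in no other gene were control-only in 8.96% (6.14 to 12.9%) and knockdown-only in 23.3% (19.2 to 28.0%). Their control-only share lay below the first interval, and their knockdown-only share had an interval that overlapped the second. The same held for all member loci, at 11.9% and 22.7%. In genes over 3000 and up to 10000 bp the edges had 20.6% control-only and 18.9% knockdown-only, and loci farther inside 25.1% and 11.7%.

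Counting by gene, 280 short genes had a locus in both control lists, and in 24 of them all such loci were control-only (8.57%, 5.83 to 12.4%), near the 7.85% of all protein-coding genes. The reverse, all loci of both knockdown lists being knockdown-only, applied to 52 of 324 genes (16.0%, 12.5 to 20.4%), against 9.07% of all. Short genes held 1.40 control loci per gene against 3.75 over all genes, so a single locus decides many of them. Genes over 3000 and up to 10000 bp, with 2.18 loci per gene, stood at 10.4% and 13.1%. In 247 short genes every list had a peak, 23 had peaks in both control lists and no knockdown list, 49 had the reverse, and 40 had a peak in 1 list only.

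Strand was recorded for 1363 of the 1887 genes. In these, peaks on the strand of the gene numbered 342 and 349 in the control and 409 and 412 in the knockdown, and peaks on the opposite strand 45, 50, 53 and 63. The share on the gene's own strand was 88.4%, 87.5%, 88.5% and 86.7%, and the groups overlapped. Own-strand loci were control-only in 26 of 276 cases (9.42%) and knockdown-only in 72 of 347 (20.7%). Opposite-strand loci were control-only in 8 of 38 (21.1%) and knockdown-only in 17 of 47 (36.2%). In genes over 3000 bp, opposite-strand loci in no other gene were control-only in 35.4% and knockdown-only in 31.2%. A high knockdown-only share on that strand was thus found in longer genes too. Member loci of the same kind, in no other gene, were control-only in 1 of 18 (5.56%, 0.988 to 25.8%) and knockdown-only in 13 of 31 (41.9%, 26.4 to 59.2%).

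Shared loci of the 2 strands ranked in opposite directions. The 234 own-strand loci in all 4 lists had a median percentile difference of -4.15. In both knockdown lists 49 lay above (20.9%) and 89 below (38.0%), against 25.3% and 28% of all shared loci. For own-strand member loci in no other gene the shares were 21.7% and 39.1%. In genes over 3000 bp such loci had 24.0% and 28.4%. The 26 opposite-strand loci of short genes had a median difference of 19.9 points. In both knockdown lists 16 of them lay above (61.5%) and 3 below (11.5%). In genes over 3000 bp the 321 opposite-strand shared loci in no other gene had a median difference of 5.04 points, with 37.4% above. The 15 member loci of that kind had a median difference of 22.1 points, with 11 above and 2 below. Opposite-strand peaks that overlapped an own-strand peak of the same gene, a measure added after the data were seen, were 13 of 45 and 17 of 50 in the control and 32 of 53 and 33 of 63 in the knockdown. The means were 31.4 ± 3.61% and 56.4 ± 5.65% (SD, n = 2 each; exact permutation p = 0.33), without overlap. How completely the library kit separated the strands was not tested, and an opposite-strand peak may be antisense RNA or carry-over from the gene's own strand; these cannot be told apart here.

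TUBB4B, a beta tubulin, had 2 opposite-strand loci in all lists that differed in this. Its opposite-strand locus near the start (chr9:137241319-137241512) had folds of 7.82 and 7.25 in the control and 10.1 and 9.14 in the knockdown, while the own-strand locus over the gene had 5.38 and 4.59, then 4.61 and 4.12. The second opposite-strand locus, near the end, had 5.20 and 6.23, then 3.89 and 6.38. The opposite-strand values near the start were higher in both knockdown lists, and the folds of the groups overlapped at the other 2 loci. By percentile the own-strand locus was lower in both knockdown lists (80.1 and 72.9, then 65.5 and 54.8), and the second opposite-strand locus overlapped. CITED2, a transcriptional coregulator, had 3 own-strand loci in all 4 lists. The one at its start had folds of 4.50 and 3.86 in the control and 2.52 and 2.13 in the knockdown. A knockdown-only locus on the opposite strand lay at the same place (chr6:139374399-139374587), with folds of 4.99 and 3.32. PCBP1, a single-exon gene for an RNA-binding protein, had folds of 6.78, 6.60, 6.21 and 4.55 on its own strand and 3.86, 4.38, 5.97 and 7.01 on the other, and was chosen after its values were seen. Both knockdown values lay above the control values on the opposite strand and below them on the gene's own strand.

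Along the genes, the position of summits differed a little between the groups. Among peaks on the gene's strand and in no other gene, the part of the gene nearest its end, 1 of 3 equal parts, held 35.6% and 35.8% of control summits and 40.1% and 41.2% of knockdown summits (exact permutation p = 0.33, n = 2 each; the measure was added after the data were seen). Genes over 3000 and up to 10000 bp had 37.8% and 37.6%, then 43.4% and 43.4%, so this difference was not particular to short genes. Of the 17 control-only loci of this kind 10 lay in the part nearest the start and 3 in the part nearest the end. Of the 60 knockdown-only loci 16 lay nearest the start and 30 nearest the end, 11 of them (18.3%) within 200 bp of the annotated end, where 16 of 184 loci shared by all lists lay (8.70%). Loci shared by all 4 lists covered a median of 26.0% of the gene span.

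**Figure D3:**
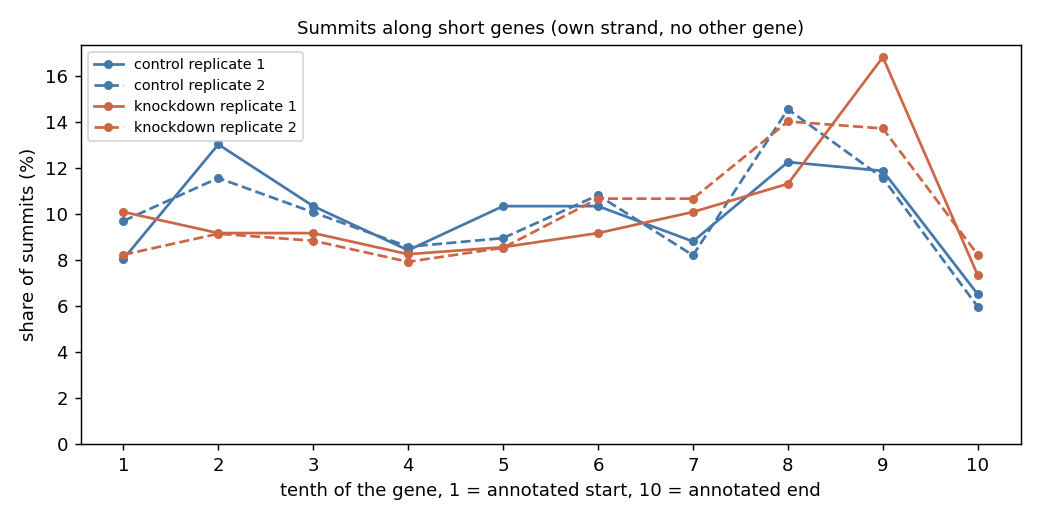
Lines give, for each list, the percentage of member summits (own strand, no other gene) in each of 10 equal parts of the gene from annotated start to annotated end. Parts 9 and 10, at the end of the gene, hold a larger share of summits in both knockdown lists (13.7% and 16.8% in part 9) than in both control lists (11.6% and 11.9%).

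Among the loci of the highest rank that all 4 lists shared were several regulatory genes. SFN had folds of 8.66 and 9.22 in the control and 12.2 and 9.79 in the knockdown. MKRN3, an imprinted single-exon gene for a ubiquitin ligase, had 8.43 and 7.32, then 12.8 and 13.9. HOXB8, a homeobox transcription factor, had 8.92 and 7.98, then 16.4 and 14.7. In these 3 genes both knockdown folds lay above both control folds. By percentile SFN overlapped (97.4 and 99.0, then 99.7 and 98.1), while MKRN3 and HOXB8 were higher in both knockdown lists. EID2B had 8.22, 9.79, 9.04 and 8.93, NCBP2AS2 9.60, 7.75, 8.65 and 9.26, and FRAT2, a regulator of Wnt signalling, 7.33, 13.0, 7.82 and 8.55. In these the groups overlapped. CEBPD, an inducible transcription factor, had 7.72 and 6.82, then 9.56 and 9.76. Folds are relative to each library's own background, so a comparison between lists describes the calls and not an amount of m6A.

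Control-only loci of the highest rank lay in genes of mixed function. OST4, a very small subunit of the enzyme that attaches N-glycans, had a locus 164 bp from its start (chr2:27071381-27071600) with folds of 4.76 in both control lists. Its second locus, near the end, was in all 4 lists at 3.15, 1.68, 1.62 and 2.06. ZNRD2 had its control-only locus 149 bp from the start with folds of 4.30 and 4.63, while a locus near its end was in all lists at 3.74, 3.83, 6.53 and 7.36. The 2 ends of ZNRD2 therefore differed: the start locus was absent from the knockdown lists and the end locus was higher in them. MC1R had its control-only locus over the distal part of the gene (chr16:89919887-89920576) with folds of 5.22 and 4.08. Its start locus, printed above, was in all lists at 5.81, 5.56, 3.51 and 5.47. TNFRSF12A, the receptor of the cytokine TWEAK, had folds of 4.38 and 4.21, and UCN, a stress peptide of the corticotropin-releasing family, 3.96 and 3.95. The other 5 of the 10 named loci (HAGHL, DNAJC30, TMT1B, SPSB2 and KCTD11) had folds between 3.35 and 4.94.

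Knockdown-only loci of the highest rank were taken from 108 loci rather than 46 and by fold rank, so their folds are no comparison with the control-only ones. HSPA6, a strictly stress-inducible HSP70, had 2 of them and no control peak, one at chr1:161525873-161526454 with folds of 9.97 and 11.7 and one at 4.91 and 6.50. NDUFB10, a subunit of respiratory complex I, had folds of 6.87 and 6.96 in a locus 152 bp from its end, next to a locus in all lists at 7.27, 5.63, 9.44 and 6.93. TMUB1, a ubiquitin-like membrane protein, had 6.08 and 7.54 at 146 bp from its end, and PSMB10, a subunit of the immunoproteasome, 4.91 and 5.37 at 137 bp from its end. These 3 loci lay within 200 bp of the annotated end. HOXB2 had 2 such loci, at 6.18 and 4.83 and at 4.51 and 5.53. OR2W3 had 6.81 and 5.33, and CDK2AP2 5.36 and 4.94. The remaining 3 (GADD45B, CXCL1 and HSPA1A) were on the strand opposite to the gene, with folds between 5.13 and 7.01.

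**Figure D4:**
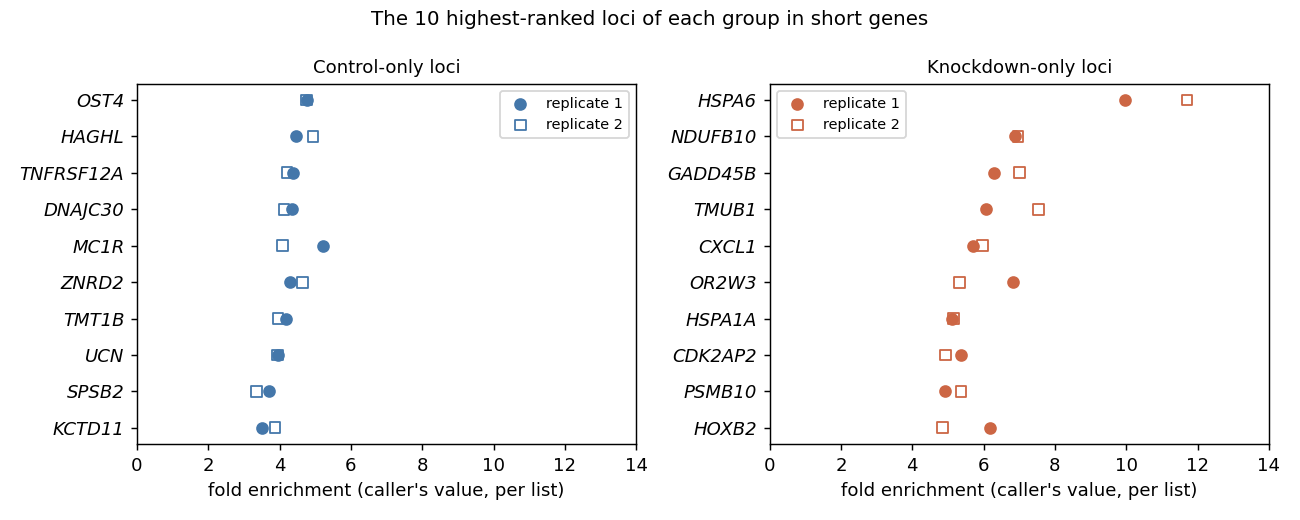
Points give the fold enrichment (the caller's value) in replicate 1 (filled) and replicate 2 (open) for the 10 control-only and the 10 knockdown-only loci of the highest rank. The replicates lie close together for most loci, and HSPA6 has the highest values at 9.97 and 11.7; the panels hold the top of pools of 46 and 108 loci and are not compared.

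Gene groups were read from 21 lists of symbols, which took in 627 short genes, 126 of them with a peak. In 12 lists knockdown-only loci outnumbered control-only loci, in 4 the reverse held, and in 4 the numbers were equal. Most lists held few loci, and counts are given without a test.

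Heat shock genes and chaperones had peaks in 5 of 10 short genes, 9 and 8 in the control lists and 12 in each knockdown list. Of 12 loci in both knockdown lists 6 were knockdown-only, and of 7 in both control lists 1 was control-only (DNAJC30), where all loci had 18.9% knockdown-only and 22.6% control-only. The 6 loci shared by all lists had a median percentile difference of -42.0 points, and 5 of them lay below in both knockdown lists, against 28% of all shared loci. HSPB1, a small heat shock protein, had folds of 5.76 and 4.37 in the control and 3.05 and 3.25 in the knockdown at its end, and a knockdown-only locus near its start at 4.03 and 2.75. HSPA1A, an inducible HSP70, had a start locus at 5.07 and 6.45, then 2.33 and 2.27, with a knockdown-only locus on the opposite strand at 5.13 and 5.15. HSPA1B, a near-identical copy, had an own-strand locus over the gene at 7.69 and 7.33, then 2.50 and 2.34, and 2 knockdown-only loci on the opposite strand. In all 3 genes the own-strand folds of the groups did not overlap, and HSPA1A had a second own-strand locus at 7.58, 4.50, 4.25 and 4.25. Reads of HSPA1A and HSPA1B could be split between the copies, so the values of each are uncertain. A fold is taken over the list's own background, and the RNA level of these genes was not measured here.

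Immediate-early and inducible regulators had no control-only locus. They had peaks in 12 of 19 short genes, with 22 and 24 peaks in the control and 25 and 28 in the knockdown. Of 19 loci in both control lists 0 were control-only and 17 were in all 4 lists, and 2 of 22 in both knockdown lists were knockdown-only, against 22.6% and 18.9% of all loci and 11.9% and 22.7% of member loci. GADD45B, a stress-inducible growth arrest factor, held a start locus (chr19:2476089-2476612) at 12.5 and 12.8 in the control and 9.09 and 5.93 in the knockdown. JUND, a subunit of the AP-1 factor, had loci in all lists at 5.31, 4.26, 4.20 and 3.65 and at 2.69, 3.57, 2.34 and 2.76, and a knockdown-only locus at 2.43 and 2.41. The GADD45B start values did not overlap between the groups, and those of the second JUND locus did. ZFP36, a protein that destabilises inflammatory messages and is listed here among the zinc finger genes, had 3.53, 4.46, 3.77 and 3.10.

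Genes for the cytosolic ribosome had 13, 15, 14 and 13 peaks in 11 of 18 short genes. Of 12 loci in both control lists 2 were control-only, in RPL29 (2.50 and 2.78) and RPS16 (1.94 and 1.49), and 0 of 9 were knockdown-only, beside 22.6% and 18.9% of all loci. The 7 loci in all lists had a median percentile difference of -8.14, with 2 below in both knockdown lists and 1 above. All shared loci had 28% below and 25.3% above. RPL8 had 5.96 and 5.36 in the control and 4.21 and 3.03 in the knockdown, lower in both knockdown lists. RPL41, which encodes the smallest ribosomal protein, had 2.63 and 4.19 in the control and 3.41 and 2.98 in the knockdown, with overlap. Ribosomal protein genes have many processed copies in the genome, and the sources used here do not say how reads were divided among copies, so these values are uncertain.

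Among nuclear genes of mitochondrial proteins, those of the mitochondrial ribosome and import had knockdown-only loci at about the share of all loci. The mitochondrial ribosome and import list had peaks in 15 of 15 short genes, 19 and 17 in the control and 24 in each knockdown list. It had 16 of 16 control loci shared by all lists and 4 of 21 knockdown-only, against 22.6% control-only and 18.9% knockdown-only over all loci. The 16 shared loci had a median percentile difference of -8.68, with 7 below in both knockdown lists and 4 above. Over all shared loci 28% lay below and 25.3% above. MRPS12 had a knockdown-only locus at 3.86 and 7.15, 308 bp from its end, and TOMM6, a subunit of the import pore of the outer membrane, one at 2.55 and 5.15, 318 bp from its end. TIMM29 had 5.44 and 4.71 in the control and 6.08 and 6.58 in the knockdown, and MRPL53 had 7.65, 4.26, 4.74 and 4.66. TIMM29 was higher in both knockdown lists, and MRPL53 overlapped. In the respiratory chain and ATP synthase list, 4 of 17 loci were knockdown-only, with ATP5ME at 6.93 and 3.46, 138 bp from its end, and 2 of 14 were control-only. This list also takes in genes of the mitochondrial genome, where 0 of the 6 member loci in both knockdown lists were knockdown-only. Its 4 knockdown-only loci all lay in nuclear genes, so their share among the nuclear loci of the list was higher than 4 of 17. COX6A1 had 2 loci in all lists: 1 at 5.77 and 5.12, then 4.78 and 4.25, lower in both knockdown lists, and 1 at 4.17 and 3.49, then 3.97 and 4.56, with overlap.

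Both control-only loci of that list lay in the mitochondrial genome, whose genes are short by nature. It held 8 member loci, all called on the plus strand. ND1 (chrMT:3377-4389) had folds of 3.15 and 2.75 and the second COX1 locus (chrMT:7061-7397) 1.92 and 1.99, each in the control lists only. The other 6 (ND2, ND6, ATP6, CYTB, ND4 and COX1) were in all lists. In 6 of 6 both knockdown percentiles lay below both control percentiles, against 28% of all shared loci. CYTB, for instance, had folds of 2.73 and 2.71, then 1.85 and 1.65. The locus placed in ND6 ran from 12294 to 15087 and so took in neighbouring genes. The strand of ND6 was not recorded here, so this locus was placed by position only and may belong to a neighbouring gene. Mitochondrial transcripts lie outside the nucleus, and their amount in the chromatin fraction was not measured here. Without this genome the member shares were 11.6% control-only and 23.0% knockdown-only.

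Among transcription factors of the SOX, FOX, HOX, POU and KLF families, 11 of 45 short genes had a peak, with 11 and 10 peaks in the control and 16 in each knockdown list. Of 13 loci in both knockdown lists 5 were knockdown-only, beside 18.9% of all loci, in genes of developmental patterning that include HOXB2, HOXD8 (4.17 and 4.91) and FOXD1 (3.88 and 3.50). The 1 control-only locus, in FOXH1, had its summit in another gene too. FOXR2 had 2 loci in all lists, at folds of 7.23 and 5.74, then 5.90 and 5.98, and at 5.18 and 7.07, then 4.88 and 4.19. The folds of the first overlapped, but its percentiles were lower in both knockdown lists (93.6 and 86.9, then 82.4 and 83.2). The second was lower in both knockdown lists by fold and by percentile. The 6 shared loci of these families had a median percentile difference of -15.1, with 4 below in both knockdown lists and 1 above. Among all shared loci 28% lay below and 25.3% above. HMGB2, a DNA-bending chromatin protein, had 2 knockdown-only loci, at 4.07 and 3.81 and at 2.90 and 2.83, and a locus in all lists at 2.43, 3.18, 2.30 and 2.45. CENPB, which binds a box in centromeric alpha satellite, had a locus over its distal part (chr20:3784145-3786048) at 6.57 and 5.94 in the control and 8.08 and 5.81 in the knockdown. Those values overlapped, and a weak control-only locus nearer the start had 2.99 and 2.37. CENPB and FOXD1 were named after their values were seen. H2AX, the damage-signalling histone variant and the only histone kept by the rule with a peak, had loci at 4.97, 4.06, 3.85 and 3.60 and at 3.14, 2.67, 2.77 and 2.63. The folds of the first were lower in both knockdown lists, and those of the second overlapped. By percentile both loci were lower in both knockdown lists, the second at 28.8 and 18.7, then 17.4 and 14.1.

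Olfactory receptors had peaks in 11 of 198 short genes and G protein-coupled receptors of other kinds in 8 of 48, beside 21.8% of all short genes covered by the rule. The olfactory list had 3 knockdown-only of 9 and 0 control-only of 6 loci, beside 18.9% and 22.6% of all loci. Its 5 shared loci all ranked higher in the knockdown mean, where 11465 of all 23691 shared loci did. At 3 of the 5 both knockdown percentiles lay above both control percentiles, against 25.3% of all shared loci. Olfactory receptor genes are known for expression in the nose. In RNA from chromatin a peak may belong to any transcript that runs through the span. The list of CXCL and CCL chemokines, interleukins and interferons had peaks in 3 of 43 genes, which were CXCL1, CXCL2 and CXCL3. It does not take in every cytokine: LTB, a lymphotoxin subunit named after its values were seen, had 10 peaks, 2 of them on its own strand. CXCL3 had a knockdown-only locus at 5.18 and 2.74, and CXCL1 had a start locus in all lists at 3.42, 4.17, 4.54 and 3.56 and a second at 5.41 and 4.94, then 3.004 and 2.78, lower in both knockdown lists. The list of claudins, tetraspanins and genes with a TMEM symbol, a name for membrane proteins of mixed kinds, had 3 control-only of 7 loci (CLDN4 at 2.36 and 2.48, TMEM102 at 3.40 and 3.66, and TMEM179B) and 0 knockdown-only of 4, beside 22.6% and 18.9% of all loci. These counts are too small to read a direction from. Keratin-associated genes had peaks in 2 of 95. The list of cancer-testis antigens, which took in only genes of the MAGE, GAGE, XAGE, PAGE, SSX and CTAG families, had peaks in 0 of 13. It did not take in every MAGE gene: MAGEF1 and MAGEH1, named after their values were seen, had 5 and 2 peaks. Some short genes outside the list are known as cancer-testis antigens and did have peaks. These too were named after their values were seen. SPANXB1 had 2 loci in all lists, at 3.80 and 3.81, then 3.32 and 3.17, and at 4.01 and 3.76, then 2.90 and 2.87. Both were lower in both knockdown lists, while SPANXC (4.37 and 4.20) and CT83 (3.70 and 3.56) each had a knockdown-only locus. SPANX genes are near-identical copies, so their values are uncertain.

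**Figure D5:**
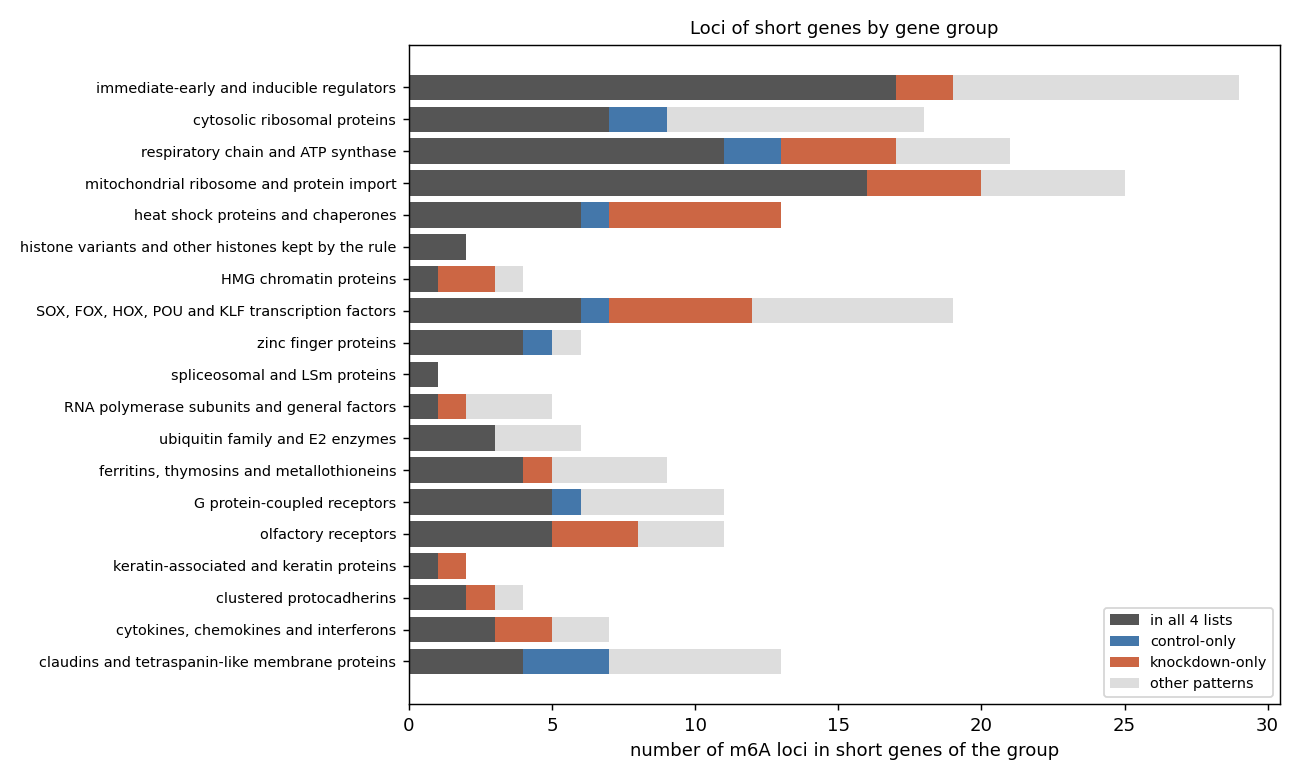
Stacked bars count the loci of short genes in 19 of the 20 gene groups with a locus, split into loci in all 4 lists, control-only, knockdown-only and other patterns. Heat shock genes show 6 knockdown-only loci and 1 control-only locus, while the immediate-early group shows 17 of 29 loci in all 4 lists.

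The most peaks were in TUBB4B (19 over the 4 lists), PLPP6 (18) and CITED2, HSPA1A and ZCCHC3 (16 each). ZCCHC3, a nucleic acid sensor cofactor, had its main locus at 4.68 and 5.89, then 9.80 and 6.71, both higher in the knockdown lists. SF3B5, a splicing factor subunit with a span of 689 bp, had 2.39 and 3.39, then 6.71 and 6.22. It was the 1 spliceosomal gene in the lists, and both its knockdown values lay above its control values.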

How the data were processed

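The deposited files used here are narrowPeak lists of 4 m6A-enriched libraries (shControl and shMETTL3, 2 each). Tools listed in the submitters' processing notes are MACS2 2.2.7.1, HISAT2 2.1.0, Bowtie2 2.4.2, SAMtools and Trim Galore 0.6.6, with build hg38 and without roles. Peaks were called per library and per strand, per the deposited peak names; those of the knockdown lists carry a knockout prefix. The fold enrichment is a ratio deposited by the authors for each peak, used here to rank and filter peaks within a list; folds of a locus in different lists are set side by side as calls, with no test and no scaling between lists. Each peak's p-value and q-value came as −log10 values from the authors, with a smallest −log10 q of 2.00; q served 1 alternative filter. The deposited score is the −log10 q times 10, per the files, and was not used. The sources used here do not say how input libraries and spike-in entered the calls, so an equal loss of m6A at all sites might leave no trace.

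Summits were placed in gene spans of the RefSeq table (GRCh38.p14, the build of hg38), which holds no exons, so exon, intron and UTR were not assigned. Gene strand came from the RefSeq start windows, which covered 1363 of 1887 short genes. Peaks were merged at 1 bp of overlap on the same strand, and a locus was placed by the summit of its strongest peak. The merging was tested on simulated peaks. Values per list were compared by two-sided exact permutation tests, with Benjamini-Hochberg adjustment over 10 measures; loci and genes are given as counts with 95% Wilson intervals. The members, gene lists and tests were chosen with earlier results of these data known.

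Named genes are the 10 with the highest-ranked control-only locus, the 10 with a knockdown-only locus and the 8 with a locus in all lists (rank: the lowest fold percentile among the lists that hold it; uncharacterized symbols and summits in another gene left out), up to 2 of each class per gene list, kept histones, the 5 genes with most peaks, METTL3, and the genes with a locus in all lists next to the length limit; items withheld here are not reported. Alternatives changed the fold or q minimum, list length, span limit, overlap, strand, placement and replicates. Python 3.11.15, pandas 2.3.3, numpy 2.4.6, scipy 1.17.1 and matplotlib 3.10.9 were used.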

Additional observations from a re-analysis of the deposited data

How the results depend on the processing

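The surplus of member peaks in the knockdown lists kept its direction in all 13 alternatives run, from 48 peaks for spans of 2000 bp or less to 117 for lists of equal length, and 87.5 to 90.5 without 1 list. The median percentile difference of -3.85 was reversed to 4.66 with a fold of at least 4, where ranks were set among the remaining peaks; it was negative in the other 12, and -5.14 to -2.56 without 1 list. The control-only share of 11.9% became 22.0% with a fold of at least 4 (24.96% of all loci), 16.3% with spans up to 5000 bp, 8.96% without summits in another gene (all loci 22.6% in both), 22.6% with a reciprocal overlap of 50% (28.2% of all loci) and 14.6 to 16.3% without 1 list (28.4 to 30.1% of all). The knockdown-only share of 22.7% became 32.8% with a fold of at least 4 (27.6% of all), 18.9% with spans up to 5000 bp (18.9% of all), 30.9% with a reciprocal overlap (24.4% of all) and 27.1 to 29.0% without 1 list (22.8 to 26.5% of all). Of the 24 genes with control-only loci alone, the count became 10 with spans of 2000 bp or less, 51 with spans up to 5000 bp, 12 without summits in another gene, 8 on the strand of the gene and 44 with a reciprocal overlap, and 30 to 34 without 1 list. The 52 genes with knockdown-only loci alone became 24 and 97 with the 2 span limits, and 64 to 68 without 1 list. Where spans were changed, the number of genes changed by construction; for the other settings the cause was not tested.

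Replicate numbers are shared by the groups, but the labels do not say that a number marks a shared batch. With the replicate block the peak difference was 89 and the percentile difference -3.85, each with an exact sign-flip p = 0.5, the smallest for 2 pairs; the deviations of same-numbered lists correlated at r = 0.17 over 316 shared member loci and 0.01 over 23691 shared loci in all, across loci that are not independent. Without the mitochondrial genome, an alternative added after seeing the data, the values were 89.5, -4.68, 11.6%, 23.0%, 23 and 52 genes. With 2 lists a group and unknown depth, a missing peak may lie just under the caller's threshold.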

Other observations

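Short genes whose span overlaps another gene differed in part from those that stand alone. The 191 loci whose summit lay in another gene as well were control-only in 21 of 108 cases (19.4%, 13.1 to 27.9%) and knockdown-only in 25 of 120 (20.8%), near the 22.6% and 18.9% of all loci. The 498 loci in no other gene were control-only in 25 of 279 cases (8.96%, 6.14 to 12.9%) and knockdown-only in 83 of 356 (23.3%). SUMO4, a small ubiquitin-like modifier gene that lies within another gene, had a locus at 4.18 and 5.10 in the control and 7.37 and 6.94 in the knockdown. PLPP6, a lipid phosphatase gene that shares its span, had 18 peaks, with an own-strand locus at 5.95, 6.15, 6.10 and 6.34 and an opposite-strand locus at its start at 6.67 and 5.41, then 4.33 and 3.51. That opposite-strand locus was lower in both knockdown lists, against the direction of most opposite-strand loci of short genes.

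C11orf68, named after its values were seen, had an own-strand locus (chr11:65916845-65918514) at 2.36 and 2.79 in the control and 8.92 and 9.25 in the knockdown. Its 2 opposite-strand loci, at 2.95, 3.72, 4.40 and 4.12 and at 3.04, 1.78, 3.40 and 3.78, were higher in both knockdown lists as well. Metallothionein MT2A, a metal-binding protein gene, had an opposite-strand locus at 4.10 and 2.90, then 4.75 and 4.30, higher in both knockdown lists, and an own-strand locus at 5.71, 3.96, 8.85 and 2.77, in which the 2 knockdown lists stood on either side of the control lists. TMSB10, an actin-binding peptide gene, had an own-strand locus at 4.62 and 4.64, then 3.65 and 4.20, and a knockdown-only opposite-strand locus at 6.86 and 6.47. The genes named in these paragraphs other than PLPP6 and MT2A were chosen after their values were seen.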
